A study of Mus musculus with 9 samples.

Results

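The genes described here are 53 genes of DNA damage sensing and repair, taken by name from 56620 gene-level features measured in cultured mouse lung cells. They were chosen by their known roles, as checkpoint, recombination, Fanconi anaemia, end joining, excision and oxidative base repair genes, and not by a measured value. Earlier results of these data were known when the choice was made. Primary cells sold as mouse pulmonary microvascular endothelial cells (PMVECs) were grown for 48 h in 3 conditions, with 3 libraries of total RNA in each. HO-rWNT5A cells were kept in 85% oxygen with 100 ng/ml recombinant WNT5A, a secreted WNT ligand. HO cells were kept in 85% oxygen without it, and RA cells in room air at 21% oxygen. Strain, age and genotype of the donor mice are not given in the sources used here. The culture was bought from a supplier, and no label said whether libraries of 1 group came from separate dishes, so each p-value below is set only against the spread between libraries, which may be technical.

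Cells read damage to DNA through the kinases ATM and ATR, which act on the checkpoint kinases CHK2 and CHK1 and can activate the transcription factor p53. Broken ends are rejoined directly or copied from the sister chromatid, small oxidised bases are cut out by glycosylases, and bulky lesions by the nucleotide excision machinery. High oxygen raises reactive oxygen species in lung cells, and oxidised guanine and strand breaks are among their known products. Many repair genes are transcribed mainly in S phase under E2F factors, while a few are p53 targets. Of the 53 genes, 5 were listed as p53-induced (Ercc5, Polk, Xpc, Rrm2b and Ddb2) and 16 as S-phase-linked (Chek1, Clspn, Brca1, Brca2, Bard1, Rad51ap1, Rad54l, Exo1, Blm, Fanca, Fancb, Fancd2, Fanci, Neil3, Ung and Msh6).

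Values are FPKM (fragments per length of transcript and per mapped fragments of the library) summed over a gene's transcripts and scaled between libraries. Depth, estimated roughly, was 21300000 to 26500000 fragments in a library, so that 1 FPKM of a transcript of 2000 bases stands for about 42.6 to 53 fragments. Most endothelial markers were near 0, against the label. Of 12 such genes, 9 had a mean under 1 FPKM, among them Pecam1 (0.093), Cdh5 (0.0543) and Vwf (0.0441), and only Flt1 (37.9) and Emcn (10.1) reached 5 FPKM. Summed, the 12 markers had 40.6 to 50.5 FPKM in HO-rWNT5A, 49.4 to 55.9 in HO and 50.5 to 56.3 in RA. The 10 pericyte and smooth muscle markers summed to 2790 to 3210, 2500 to 3420 and 3030 to 3380 FPKM in HO-rWNT5A, HO and RA libraries, and 8 of them reached 5 FPKM. The 8 fibroblast markers summed to 194 to 267 FPKM in HO-rWNT5A, 218 to 269 in HO and 269 to 287 in RA, with no hyperoxic library above an RA library. The 9 epithelial markers summed to 87.8 to 102, 86.5 to 116 and 93.6 to 111 FPKM, and the 8 leukocyte markers to at most 10.9. HO replicate 3 stood apart from HO replicates 1 and 2, in small structural RNA (20.2% of FPKM, the others 27.5% and 26.6%) and in transcripts that retain an intron (7.09%, the others 5.49% and 5.26%). The HO-rWNT5A and RA libraries had 21.5% to 28.1% and 5.96% to 6.58%. In retained introns HO replicate 3 was thus the highest of all 9 libraries, and HO replicates 1 and 2 were the lowest. The part of these RNA shares and marker levels in the results was not tested. In RNA from whole cultures, fewer cells of a kind and less RNA per cell cannot be told apart.

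All 53 genes were above 0 in all 9 libraries, mostly at low levels. Their median level was 3.16 FPKM, which includes the genes with a mean under 1 FPKM. The median of all genes tested was 7.29 FPKM, but those had to average at least 1 FPKM. The medians are therefore not directly comparable. Of the 53, 12 had a mean under 1 FPKM, 20 lay between 1 and 5, 20 between 5 and 20, and 1 above 20. That one was Ercc1, a subunit of the nuclease that cuts on the 5′ side of a bulky lesion, at 113 ± 9.52 FPKM (SD, n = 9). The S-phase-linked genes were lower still, with a median of 0.891 FPKM and 9 of 16 under 1 FPKM. The genes lay on 16 chromosomes, with 7 on chromosome 9, among them Atm, Atr and Chek1. A mean of at least 1 FPKM was required for testing, which left 41 of the 53: 4 of the 5 p53-induced genes (not Ddb2), 7 of the 16 S-phase-linked genes and 30 of the 32 others.

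**Figure D1:**
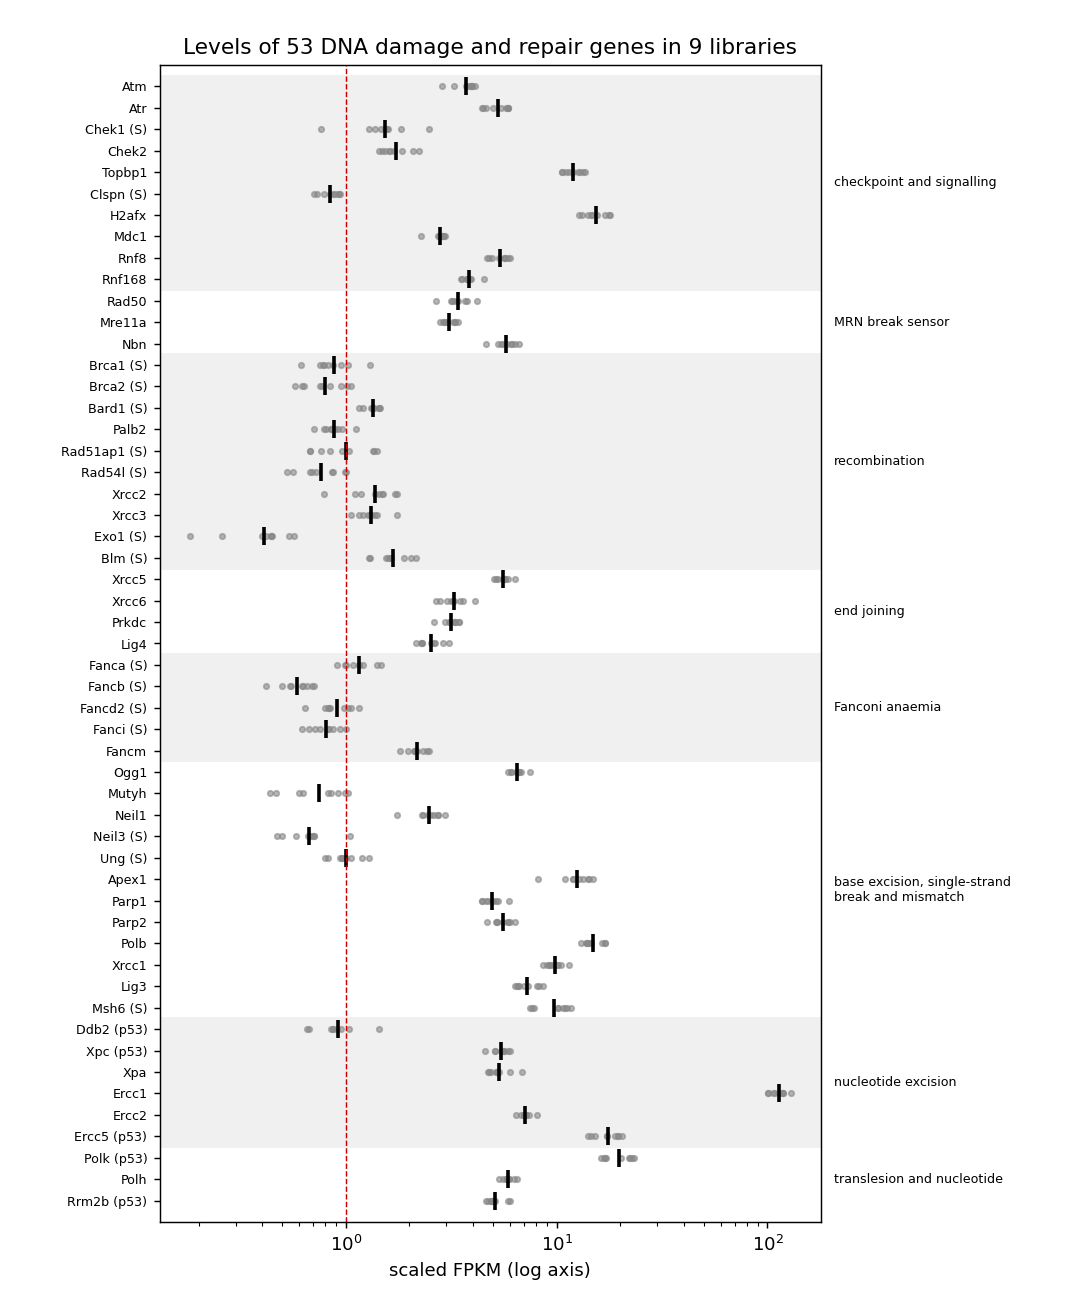
Scaled FPKM of each of the 53 genes (rows, by role) on a log axis. Grey points are the 9 libraries, black ticks the mean, and the dashed red line the minimum of 1 FPKM for testing; (p53) and (S) mark the p53-induced and S-phase-linked genes. Ercc1 stands alone at 113 FPKM, while 12 genes have a mean left of the line.

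For several genes much of the signal came from transcripts not annotated as protein-coding. Transcripts that retain an intron held 55.7% of the FPKM of Ercc5, a nuclease of nucleotide excision repair, and 45.8% of that of Xrcc1, the scaffold of single-strand break repair. Of the FPKM of Ogg1, the glycosylase that removes oxidised guanine, 41.9% came from protein-coding transcripts. Transcripts annotated as nonsense-mediated decay held 45.0% of it, and those that retain an intron 12.8%. Msh6, a mismatch sensor, had 100.0% of its FPKM in protein-coding transcripts. Summed over the set, retained-intron transcripts held 13.9%, 16.0% and 14.1% in HO-rWNT5A replicates 1 to 3, 11.9%, 12.5% and 15.6% in HO, and 13.3%, 14.2% and 13.4% in RA. Strandedness was not given in the sources used here. Values of Xrcc6, Xpa, Xrcc3, Ogg1, Apex1, Fanci, Rad54l, Fanca, Lig3 and Ercc1 are uncertain to that extent, because each overlaps a neighbouring gene in the annotation. The same holds for Rnf8, which overlaps a predicted gene. Rrm2b has an annotated pseudogene copy, an uncertainty apart from that of strand.

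HO was set against RA to show what 85% oxygen did to these genes. Of the 41 tested, 2 rose (4.88%) and 0 fell with limma at a Benjamini-Hochberg adjusted p under 0.05. Over all 13831 genes tested, 1.21% rose, 0.766% fell and 1.97% passed in either direction. The 2 were Msh6 and Ercc5. In all, 273 genes passed, against 706 without HO replicate 3 (414 higher, 292 lower), where 3 of the set did, Msh6 and Ercc5 higher and Lig3 lower. At an unadjusted p under 0.05 there were 7 of 41, where 18.1% of all genes reached it. Fold changes were small, from -0.31 to 0.42 on the log2 scale, with 15 above 0 and 26 below. Their median was -0.04, against -0.004 over all genes. In 4 genes every HO library was above every RA library (9.76%, against 11.3% of all genes), and in 7 every HO library was below (17.1%, against 10.1%).

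Msh6 codes for a protein that recognises mismatched bases (chromosome 17, 87975062 to 87990892, plus strand). It had 10.1, 10.7 and 11.0 FPKM in HO replicates 1, 2 and 3, against 7.81, 7.62 and 7.45 in RA. All HO libraries were above all RA libraries. The log2 fold change was 0.42 ± 0.065 (SE, 95% interval 0.28 to 0.57, limma adjusted p = 0.0155), on the log2(FPKM + 1) scale, which understates changes of low genes. At 9.75 ± 1.67 FPKM over all libraries (SD, n = 9) it was the most abundant of the 16 S-phase-linked genes. The call was lost without RA replicate 1, 2 or 3 (limma adjusted p = 0.0634, 0.0782 and 0.0802), where only 24, 2 and 13 genes of the whole table passed. Leaving out a single HO library did not end it.

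The other mismatch repair genes gave no call. Of 6 tested, 0 rose and 0 fell with limma, 1 reached an unadjusted p under 0.05, and their log2 fold changes lay between -0.27 and -0.01.

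Ercc5 codes for XPG, the nuclease that cuts on the 3′ side of a bulky lesion (chromosome 1, 44147744 to 44181260, plus strand). Its values were 17.3, 17.3 and 18.9 FPKM in HO libraries, against 14.1, 15.2 and 14.6 in RA libraries. The groups did not overlap. The log2 fold change was 0.27 ± 0.057 (95% interval 0.14 to 0.39, limma adjusted p = 0.0475). This value lay close to the threshold, and 17 of 23 alternative settings ended the call (limma adjusted p from 0.0238 to 0.343 over the 23). Of the 9 settings that left out 1 library, only the one without HO replicate 3 kept it (limma adjusted p = 0.0479), and p reached 0.151 without RA replicate 3. The rise was larger in the protein-coding transcript. Ercc5-201 had 8.86, 8.26 and 8.62 FPKM in HO, against 6.15, 5.71 and 6.26 in RA, beside mixed values in the retained-intron transcripts. Ercc5-202 had 4.20, 4.03 and 4.86 in HO against 4.25, 5.43 and 4.91 in RA, Ercc5-207 had 3.05, 3.62 and 4.10 against 2.49, 3.13 and 2.58, and Ercc5-203 averaged 1.02 ± 0.118 against 0.847 ± 0.109 (SD, n = 3 each). With protein-coding transcripts alone, the log2 fold change of Ercc5 was 0.42 (limma adjusted p = 0.0238).

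Polk, a polymerase that copies past bulky adducts, did not pass in this comparison (chromosome 13, 96480690 to 96542579, minus strand). It had 20.2, 17.2 and 22.0 FPKM in HO libraries and 16.8, 16.9 and 16.2 in RA libraries. HO replicate 2 was the lowest of its group and just above the highest RA library, so the groups did not overlap. The log2 fold change was 0.23 ± 0.079 (limma adjusted p = 0.163), and without HO replicate 2 it was 0.33 (limma adjusted p = 0.0447).

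The 150 bases before the annotated starts of Msh6 (chr17:87974900-87975049, plus strand), Ercc5 (chr1:44147594-44147743, plus strand) and Polk (outer start, chr13:96542580-96542729, minus strand) are shown because these are the genes that passed a test in any comparison. They are from RefSeq, build GRCm38.p6. Capitals in Ercc5 mark TTTGAA, a core of the CHR element found at cell cycle promoters, which lies on the other strand at positions -141 to -136 from the start.
Msh6: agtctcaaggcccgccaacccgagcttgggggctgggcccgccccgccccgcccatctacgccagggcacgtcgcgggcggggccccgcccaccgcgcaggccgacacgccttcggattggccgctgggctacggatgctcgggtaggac
Ercc5: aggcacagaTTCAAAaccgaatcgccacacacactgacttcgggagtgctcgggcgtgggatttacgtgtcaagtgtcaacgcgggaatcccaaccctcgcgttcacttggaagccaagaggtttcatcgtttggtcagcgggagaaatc
Polk: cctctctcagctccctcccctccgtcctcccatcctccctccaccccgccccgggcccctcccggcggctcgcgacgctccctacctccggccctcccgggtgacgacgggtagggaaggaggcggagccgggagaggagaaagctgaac

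Promoter windows of 250 bases before and 50 after the start were at hand for 42 of the 53 genes and searched on both strands. The E2F motifs TTTCGCGC, TTTGGCGC and TTCCCGCC were in 2.96% of 32851 windows of that length, and TTCCCGCC alone in 2.19%. They were found in 5 of the 14 S-phase-linked genes with a window (Chek1, Clspn, Fancb, Msh6 and Rad51ap1) and in 0 of the 2 p53-induced genes with one. Fancm, Mdc1, Rnf168, Rnf8 and Topbp1, in neither list, had such a motif too. The S-phase list was itself made of genes known as E2F-regulated or highest in S phase. TTTGAA was in 17.9% of windows. The p53 response element, searched by its consensus, was in 6.72%, and among the p53-induced genes only in the window of the inner Polk start. Motif matches are letters and not proven sites. The 30 bases around the E2F motif, in capitals, are shown for Msh6 (chr17:87975055-87975084, plus strand) and Chek1 (chr9:36726609-36726638, minus strand, motif on the other strand). Both are S-phase-linked genes with the same motif, and Msh6 rose while Chek1 had a log2 fold change of -0.30 (limma adjusted p = 0.356).
Msh6: tcctcccgactTTCCCGCCagcggcggccg
Chek1: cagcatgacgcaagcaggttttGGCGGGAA

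The other p53-induced genes gave no call. Xpc, which senses helix distortion, had 5.85, 5.12 and 4.58 FPKM in HO libraries and 5.98, 5.42 and 5.63 in RA libraries. Its log2 fold change was -0.12 (95% interval -0.30 to 0.07, limma adjusted p = 0.499). Rrm2b, the p53-linked subunit of the enzyme that makes deoxynucleotides, had 4.91, 4.70 and 5.98 FPKM in HO libraries and 5.87, 5.03 and 5.08 in RA libraries. Its log2 fold change was -0.03 (95% interval -0.23 to 0.17, limma adjusted p = 0.882). In both genes the groups overlapped, and both intervals lie below the change seen for Msh6. Ddb2, a damage-binding protein whose control by p53 is known from human cells, had 1.03, 0.653 and 0.848 FPKM in HO libraries and 0.943, 0.668 and 1.44 in RA libraries, and was too low for testing.

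**Figure D2:**
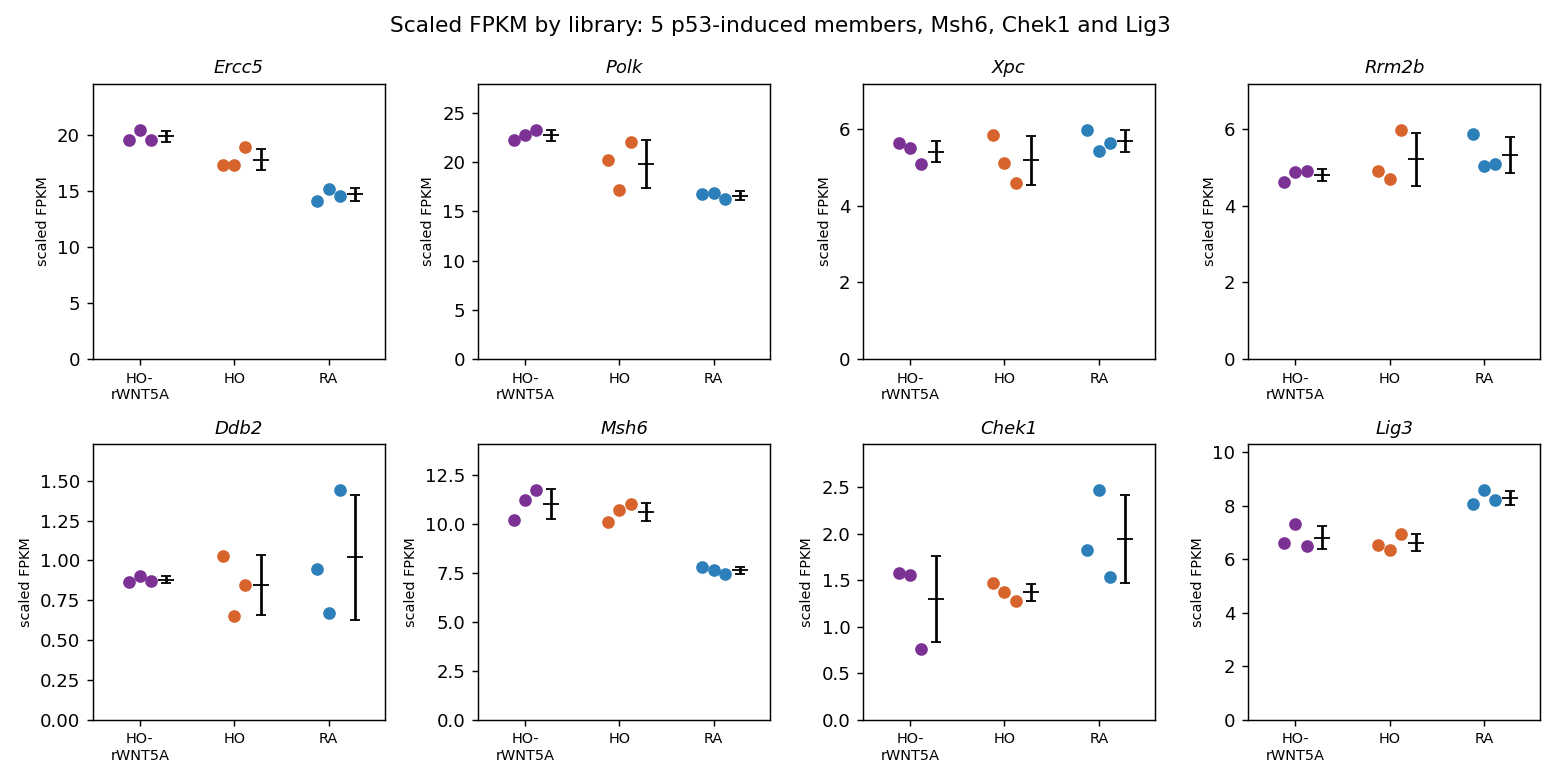
Scaled FPKM of the 5 p53-induced genes, Msh6, Chek1 and Lig3 in HO-rWNT5A, HO and RA (left to right, axes from 0). Points are libraries, and the bar beside them gives the mean ± SD (n = 3). Ercc5, Polk and Msh6 lie higher in both hyperoxic groups than in RA, Lig3 lies lower, and HO and RA overlap for Xpc, Rrm2b and Ddb2.

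Set side by side, the 4 tested p53-induced genes had a median log2 fold change of 0.10, with 1 rising, 0 falling and 2 of 4 above 0. The 7 tested S-phase-linked genes had a median of -0.04, with 1 rising, 0 falling and 3 of 7 above 0. The 30 tested genes in neither list had a median of -0.07, with 0 rising, 0 falling and 4 at an unadjusted p under 0.05. The median of the p53-induced genes rested on the minimum level. With no minimum, which adds Ddb2, it was -0.03, and the S-phase-linked median over all 16 genes was also -0.03. The S-phase-linked genes also depended on 1 library: per library, their median difference from the RA mean was -0.12, -0.12 and 0.14 in HO replicates 1, 2 and 3. Without HO replicate 3 their median log2 fold change was -0.13.

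The S-phase-linked genes other than Msh6 were thinly counted. Chek1, the kinase that slows S phase, had 1.47, 1.38 and 1.28 FPKM in HO libraries, against 1.83, 2.47 and 1.54 in RA libraries. All HO libraries were below all RA libraries. Brca1, which guides breaks into recombination, had 0.614, 0.777 and 0.787 FPKM in HO libraries, against 0.948, 1.30 and 1.02 in RA libraries. Brca2, which acts in recombination, had 0.756, 0.839 and 0.635 in HO libraries, against 1.01, 1.06 and 0.947 in RA libraries. In both, every HO library was below every RA library, and both were under the minimum level for testing. Of the 12 genes under that minimum, 0 passed when it was dropped, with a lowest limma adjusted p of 0.305 and roughly 91 to 166 fragments per library behind Brca1. Bard1, the partner of BRCA1, had a log2 fold change of -0.04 with overlapping groups.

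For the other S-phase-linked genes under 1 FPKM, the HO mean was below the RA mean except for Neil3 and Fancb. Most of these groups overlapped. Fancd2, which is ubiquitinated at crosslinks, had 0.983, 0.822 and 0.798 FPKM in HO libraries, against 1.06, 1.15 and 1.02 in RA libraries, without overlap. Its partner Fanci had 0.825, 0.713 and 1.00 in HO libraries and 0.864, 0.833 and 0.942 in RA libraries. Clspn, the adaptor between ATR and CHK1, had 0.918, 0.927 and 0.784 in HO libraries and 0.942, 0.889 and 0.865 in RA libraries. Groups overlapped in both. Neil3, a glycosylase of replicating cells, had 0.694, 1.05 and 0.702 in HO libraries and 0.664, 0.578 and 0.705 in RA libraries. Exo1, the nuclease that resects ends, was the lowest of the 53, at 0.182, 0.566 and 0.257 in HO libraries and 0.398, 0.442 and 0.442 in RA libraries. Rad54l, Fancb and, outside the S-phase list, Palb2 also overlapped between HO and RA. Of the tested ones, Blm, a helicase of recombination (-0.04), and Ung, which removes uracil (0.01), overlapped as well.

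**Figure D3:**
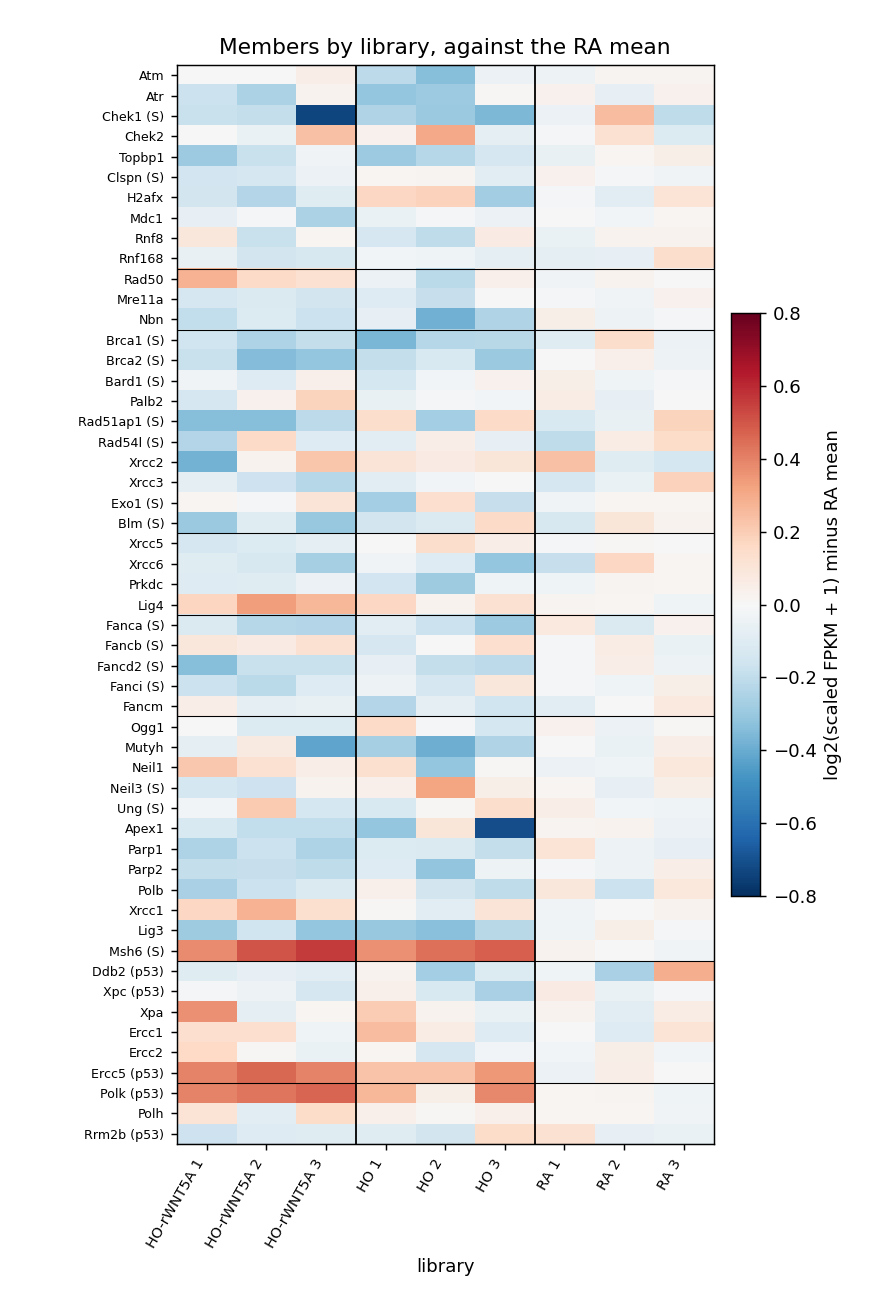
Difference of log2(scaled FPKM + 1) from the RA mean for each of the 53 genes (rows, by role) in the 9 libraries (columns: HO-rWNT5A, HO, RA). Red is above and blue below the RA mean. Msh6, Ercc5 and Polk are red in all HO-rWNT5A libraries and at or above 0 in all HO libraries, and the single deep blue cells are Chek1 in HO-rWNT5A replicate 3 and Apex1 in HO replicate 3.

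Checkpoint and signalling genes gave no call in HO. Of 9 tested, 0 rose and 0 fell with limma, 2 reached an unadjusted p under 0.05 and 7 lay below 0, with a median of -0.09. Atm, the kinase that answers double-strand breaks, had 3.24, 2.87 and 3.73 FPKM in HO libraries, against 3.76, 3.96 and 3.96 in RA libraries (log2 fold change -0.20 ± 0.082, limma adjusted p = 0.238). The groups did not overlap, by a narrow gap. Atr, the kinase that answers stalled forks, had 4.42, 4.48 and 5.75 in HO libraries, against 5.87, 5.42 and 5.87 in RA libraries (log2 fold change -0.20 ± 0.10, limma adjusted p = 0.338). HO replicate 3 lay inside the RA range. Topbp1, the activator of ATR, had 10.6, 11.1 and 11.9 in HO libraries, against 12.6, 13.3 and 13.6 in RA libraries, which did not overlap (-0.21 ± 0.075, limma adjusted p = 0.176). Chek2, the kinase below ATM, had 1.69, 2.23 and 1.49 in HO libraries and 1.60, 1.85 and 1.43 in RA libraries (0.09 ± 0.12, limma adjusted p = 0.739). H2afx, the histone that is phosphorylated around breaks, had 17.7, 18.0 and 12.8 in HO libraries and 15.5, 14.7 and 17.0 in RA libraries (0.02 ± 0.11, limma adjusted p = 0.933). Both overlapped.

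Among the break sensors, Nbn had 6.04, 4.64 and 5.25 FPKM in HO libraries, against 6.62, 6.17 and 6.33 in RA libraries. Its log2 fold change was -0.23 ± 0.083 (limma adjusted p = 0.182), and the groups did not overlap. Its partners Mre11a (-0.09) and Rad50 (-0.07) overlapped between groups. Of 5 recombination genes tested, 0 rose and 0 fell, and 0 reached an unadjusted p under 0.05, with log2 fold changes of -0.04 to 0.09. Of the 4 end joining genes, 0 rose and 0 fell, and 0 reached an unadjusted p under 0.05. Prkdc, the catalytic subunit of the end joining kinase, had 2.95, 2.61 and 3.29 FPKM in HO libraries and 3.28, 3.45 and 3.44 in RA libraries, which overlapped (-0.16 ± 0.079, 95% interval -0.33 to 0.02, limma adjusted p = 0.332). Lig4, the ligase of the pathway, had 2.63, 2.30 and 2.53 FPKM in HO libraries, against 2.29, 2.28 and 2.16 in RA libraries, which did not overlap (0.10 ± 0.078, limma adjusted p = 0.517). Of the Fanconi anaemia genes, 2 of 5 could be tested, Fanca (-0.18) and Fancm (-0.16), and neither passed.

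The genes of the early damage response around a break, Mdc1, Rnf8 and Rnf168, which read phosphorylated histone and add ubiquitin, had log2 fold changes of -0.04, -0.09 and -0.04 with overlapping groups. The same held for Xrcc2 (0.09), Xrcc3 (-0.04), Xrcc5 (0.07) and Xrcc6 (-0.15). In nucleotide excision repair Ercc5 was the only gene called of 5 tested. Ercc1 had 129, 113 and 101 FPKM in HO libraries and 108, 101 and 117 in RA libraries (0.07 ± 0.095, limma adjusted p = 0.736). Xpa, which verifies the lesion, had a log2 fold change of 0.06, and Ercc2, the helicase that opens it, one of -0.05, and both overlapped.

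The genes of oxidative base repair gave no call in HO. Ogg1 had 7.46, 6.57 and 5.90 FPKM in HO libraries and 6.79, 6.38 and 6.66 in RA libraries, with a log2 fold change of 0.00 (95% interval -0.18 to 0.18, limma adjusted p = 0.995). Mutyh, which removes adenine opposite oxidised guanine, had 0.601, 0.464 and 0.625 in HO libraries, against 0.922, 0.854 and 0.994 in RA libraries, without overlap but on 16 to 36 rough fragments per library. Apex1, the endonuclease that opens the strand after a glycosylase, had 11.0, 14.9 and 8.12 FPKM in HO libraries and 14.1, 14.2 and 13.4 in RA libraries. HO replicate 3 was the lowest of all 9 libraries and HO replicate 2 the highest, and the log2 fold change was -0.31 ± 0.15 (limma adjusted p = 0.315).

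Lig3, the ligase that seals single-strand breaks with XRCC1, came closest to a call below RA. It had 6.52, 6.36 and 6.96 FPKM in HO libraries, against 8.08, 8.58 and 8.21 in RA libraries. The groups did not overlap, and the log2 fold change was -0.29 ± 0.065 (95% interval -0.43 to -0.14, limma adjusted p = 0.0552). It passed in 3 of 23 alternative settings, one of them without HO replicate 3 (limma adjusted p = 0.0371). Parp1, the main sensor of strand breaks, had 4.97, 4.95 and 4.64 FPKM in HO libraries, against 5.94, 5.27 and 5.15 in RA libraries. It had a log2 fold change of -0.14 ± 0.07 and Parp2 one of -0.15 ± 0.077, with limma adjusted p of 0.318 and 0.325, and in both genes HO lay below RA without overlap. Xrcc1 (0.01) and Polb, the gap-filling polymerase (-0.10), overlapped. Polh, a polymerase that copies past ultraviolet lesions, had 5.93, 5.77 and 5.91 FPKM in HO libraries and 5.79, 5.80 and 5.59 in RA libraries (0.03 ± 0.073, 95% interval -0.13 to 0.19, limma adjusted p = 0.859).

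**Figure D4:**
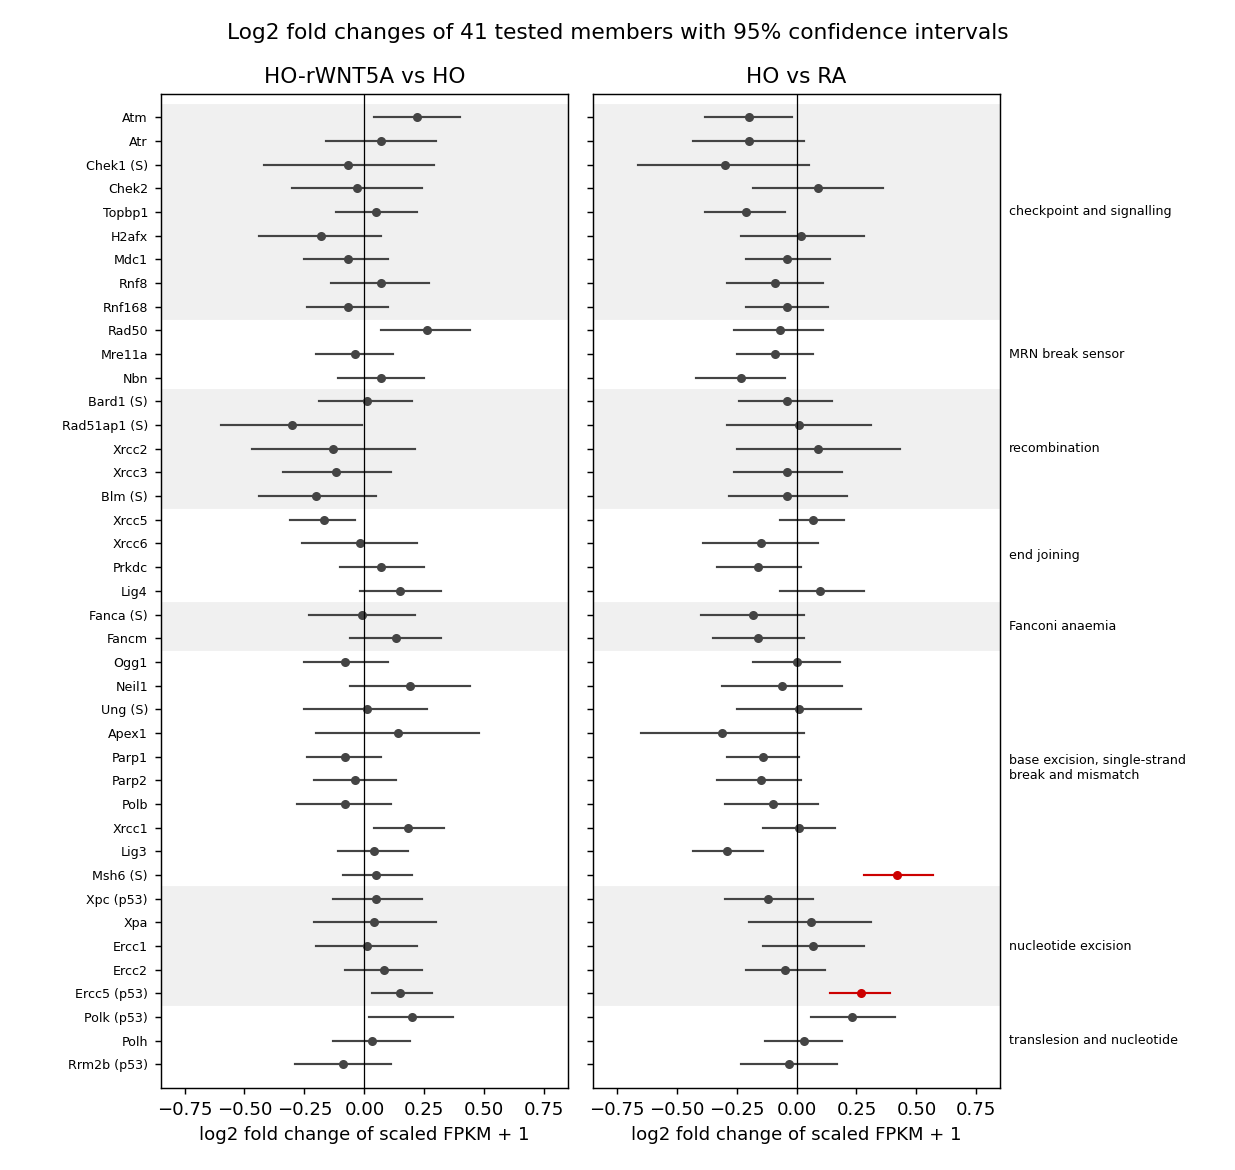
Log2 fold changes with 95% confidence intervals for the 41 tested genes (rows, by role), for HO-rWNT5A vs HO on the left and HO vs RA on the right. Red marks limma adjusted p under 0.05. The 2 red genes are Msh6 and Ercc5 in HO vs RA, and no gene is red in HO-rWNT5A vs HO.

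HO-rWNT5A was then set against HO to show what WNT5A added to hyperoxia. Of the 41 genes, 0 rose and 0 fell with limma, and 7 reached an unadjusted p under 0.05. Of all genes, 0.0% rose and 0.00723% (1 gene) fell, and 9.2% reached that unadjusted p. The median of the 41 was 0.01, against 0.002 over all genes. In 7 of the 41 genes every HO-rWNT5A library was above every HO library (17.1%, against 6.27% of all genes), and in 1 every one was below (2.44%, against 6.7%). The p53-induced genes had a median of 0.10 and the S-phase-linked ones a median of -0.01. The HO libraries also entered the comparison with RA.

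The larger differences went in both directions. Rad50, the scaffold of the break sensor, had 4.18, 3.75 and 3.66 FPKM in HO-rWNT5A libraries, against 3.14, 2.68 and 3.40 in HO libraries (log2 fold change 0.26 ± 0.084, limma adjusted p = 0.5). Atm had 3.89, 3.91 and 4.08 in HO-rWNT5A libraries, against 3.24, 2.87 and 3.73 in HO libraries (0.22 ± 0.082, limma adjusted p = 0.5). Xrcc5, the KU80 subunit that caps broken ends, had 5.04, 5.17 and 5.28 in HO-rWNT5A libraries, against 5.67, 6.31 and 5.90 in HO libraries (-0.17 ± 0.061, limma adjusted p = 0.5). In these 3 genes the groups did not overlap. Rad51ap1, a recombination gene, had 0.679, 0.676 and 0.836 FPKM in HO-rWNT5A libraries and 1.34, 0.760 and 1.36 in HO libraries. Its log2 fold change was -0.30 ± 0.13 (limma adjusted p = 0.538), on 23 to 58 rough fragments, and HO replicate 2 lay inside the HO-rWNT5A range.

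Xrcc1 averaged 10.7 ± 0.62 FPKM in HO-rWNT5A libraries, against 9.33 ± 0.684 in HO libraries (SD, n = 3 each; log2 fold change 0.18 ± 0.067, limma adjusted p = 0.5), and these groups did not overlap. Its protein-coding transcript Xrcc1-201 did overlap, with 5.03, 5.40 and 4.69 FPKM in HO-rWNT5A libraries and 5.31, 5.01 and 3.74 in HO libraries. Summed over their transcripts, Lig4 and Fancm lay higher in every HO-rWNT5A library than in every HO library, with log2 fold changes of 0.15 and 0.13. Neil3, under the minimum level, lay lower, at 0.498, 0.469 and 0.677 in HO-rWNT5A libraries against 0.694, 1.05 and 0.702 in HO libraries. H2afx had 14.1, 13.2 and 14.6 FPKM in HO-rWNT5A libraries and 17.7, 18.0 and 12.8 in HO libraries, where HO replicate 3 was the lowest of all 9, and the groups overlapped.

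Ercc5 and Polk were also higher with WNT5A in every library, without passing. Ercc5 had 19.6, 20.5 and 19.6 FPKM in HO-rWNT5A libraries, against 17.3, 17.3 and 18.9 in HO libraries (log2 fold change 0.15 ± 0.057, limma adjusted p = 0.5). The difference lay mostly in retained-intron transcripts. Ercc5-202 had 5.72, 6.74 and 6.09 FPKM in HO-rWNT5A libraries, against 4.20, 4.03 and 4.86 in HO libraries, while the protein-coding Ercc5-201 had 9.18, 7.90 and 7.60, against 8.86, 8.26 and 8.62. Ercc5-207 averaged 3.85 and 3.59 FPKM, and Ercc5-203 averaged 1.39 and 1.02, in HO-rWNT5A and HO libraries. With protein-coding transcripts alone the log2 fold change of Ercc5 was -0.04 (limma adjusted p = 0.894). Polk had 22.2, 22.7 and 23.3 FPKM in HO-rWNT5A libraries, against 20.2, 17.2 and 22.0 in HO libraries (0.20 ± 0.079, limma adjusted p = 0.503). Msh6, at 10.2, 11.2 and 11.7 in HO-rWNT5A libraries and 10.1, 10.7 and 11.0 in HO libraries, overlapped (0.05 ± 0.065, 95% interval -0.09 to 0.20, limma adjusted p = 0.834).

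HO-rWNT5A set against RA shares its RA libraries with the comparison of HO and RA, and its HO-rWNT5A libraries with that of HO-rWNT5A and HO. Of the 41 genes, 3 rose (7.32%, against 2.39% of all genes) and 0 fell (against 1.87%), while 4.26% of all genes passed in either direction. Of the 41, 9 reached an unadjusted p under 0.05 (against 20.9%). Their median was -0.08, against -0.004 over all genes. The 3 were Msh6, Ercc5 and Polk. In 6 genes every HO-rWNT5A library was above every RA library (14.6%, against 16.3%), and in 11 every one was below (26.8%, against 16.5%).

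Msh6 had a log2 fold change of 0.48 ± 0.065 (limma adjusted p = 0.00567) and Ercc5 one of 0.42 ± 0.057 (limma adjusted p = 0.00567). In each, 1 of 23 alternative settings, scaling to equal totals, ended the call (limma adjusted p = 0.0576 for Msh6 and 0.072 for Ercc5). Polk had a log2 fold change of 0.43 ± 0.079 (95% interval 0.25 to 0.60, limma adjusted p = 0.0195), with all HO-rWNT5A libraries above all RA libraries. Its call was lost in 9 of 23 alternative settings. These include leaving out HO-rWNT5A replicate 1, 2 or 3 (limma adjusted p = 0.054, 0.077 and 0.0677) and RA replicate 1, 2 or 3 (adjusted p = 0.0706, 0.0614 and 0.0745).

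Of the other genes, Lig3 had 6.61, 7.32 and 6.51 FPKM in HO-rWNT5A libraries, against 8.08, 8.58 and 8.21 in RA libraries (log2 fold change -0.25 ± 0.065, limma adjusted p = 0.0584), without overlap. Parp1 had 4.44, 4.71 and 4.43, against 5.94, 5.27 and 5.15 (-0.22 ± 0.07, limma adjusted p = 0.0985), also without overlap. Chek1 had 1.58, 1.56 and 0.759, against 1.83, 2.47 and 1.54 (-0.37 ± 0.16, limma adjusted p = 0.224), and the groups overlapped. Xpc (-0.06) and Rrm2b (-0.12) did not pass. Among S-phase-linked genes under the minimum level, Brca1, Brca2, Clspn, Fancd2 and Fanci lay lower in every HO-rWNT5A library than in every RA library. Fancb lay higher, and Exo1, Rad54l and Neil3 overlapped. The tested Rad51ap1 lay lower without overlap (-0.30 ± 0.13, limma adjusted p = 0.244). The p53-induced genes had a median of 0.18, with 2 of 4 rising, and the S-phase-linked genes a median of -0.19, with 1 of 7 rising and 5 of 7 below 0. With no minimum level these medians were -0.06 and -0.14.

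The other genes of the same pathways, 93 by name of which 83 were tested, were called about as often as all genes. In HO against RA 1 rose (1.2%, against 1.21% of all genes) and 0 fell, with 17 of 83 at an unadjusted p under 0.05 (where 18.1% of all genes reached it) and a median of -0.03. It was Ppm1d, a p53-induced phosphatase that switches damage signalling off, with 7.35, 7.85 and 7.92 FPKM in HO libraries against 5.66, 5.74 and 5.36 in RA libraries. The groups did not overlap, and the log2 fold change was 0.40 ± 0.061 (limma adjusted p = 0.0153). In HO-rWNT5A against HO, 0 rose and 0 fell with limma, and 4 of 83 reached an unadjusted p under 0.05 (against 9.2% of all genes).

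In HO-rWNT5A against RA 3 of these rose and 1 fell (4.82%, against 4.26% of all genes). Ppm1d rose (0.43 ± 0.061, limma adjusted p = 0.00586), as did Mus81, a nuclease that cuts stalled forks (0.38 ± 0.087, adjusted p = 0.0393), and Rev1, a translesion polymerase (0.34 ± 0.078, adjusted p = 0.0402). Pcna, the sliding clamp of replication and repair synthesis, fell, with 19.5, 17.4 and 19.2 FPKM in HO-rWNT5A libraries against 25.0, 23.0 and 23.7 in RA libraries (-0.34 ± 0.08, limma adjusted p = 0.0435). The Mus81, Rev1 and Pcna calls were lost in 12, 13 and 8 of 23 alternative settings.

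Genes that read p53 activity and the cell cycle gave more calls, in lists also chosen with earlier results of these data known. Of 12 p53 activity genes outside the set, 6 rose (where 1.21% of all genes rose) and 0 fell in HO against RA. Their median log2 fold change was 0.37. Trp53inp1 (0.56 ± 0.07), the antiproliferative Btg2 (0.48 ± 0.061) and Eda2r (0.44 ± 0.062) were among them, with limma adjusted p of 0.0112, 0.0112 and 0.0134. Of 17 cell cycle genes tested, 7 fell (41.2%, against 0.766% of all genes) and 0 rose. The median was -0.33. Both counts dropped when any 1 RA library was left out, where calls were lost across all genes. Without RA replicate 1, 2 or 3, only 24, 2 and 13 of all genes passed in either direction, against 273 with every library. In these settings the p53 activity genes that rose numbered 3, 0 and 0, and the cell cycle genes that fell 0, 0 and 1. Scaling to equal totals gave 2 and 2, and leaving out HO replicates 2 and 3 together 1 and 0. Plk1, a kinase of mitotic entry, had 1.98, 1.89 and 1.79 FPKM in HO libraries, against 4.01, 4.15 and 3.61 in RA libraries (-0.77 ± 0.10, limma adjusted p = 0.0112). In HO-rWNT5A against RA, 7 of the 12 rose (against 2.39% of all genes) and 10 of the 17 fell (against 1.87%). In HO-rWNT5A against HO, 0 genes of either list rose or fell, with 0 of 12 and 2 of 17 at an unadjusted p under 0.05.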

How the data were processed

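Total RNA was sequenced as paired ends, and reads were trimmed with Skewer 0.2.2, aligned with STAR 2.5.3a and assembled into transcripts with StringTie 1.3.1, per the labels' protocols. The submitters' processing notes list builds hg38 and mm10 without roles. The deposited values are FPKM per transcript, which the authors had already scaled to transcript length and library size. Of 142351 transcripts with an Ensembl mouse identifier, 99.36% were matched to GENCODE M21 (GRCm38), and FPKM was summed per gene.

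Libraries were then scaled by median ratio, and the 13831 genes that averaged 1 FPKM or more were tested on log2(FPKM + 1) with limma 3.58.1 (R 4.3.3; all 9 libraries, variance trend, two-sided, Benjamini-Hochberg adjustment over all genes, threshold 0.05). An exact permutation test of 3 against 3 libraries cannot go below p = 0.1. FPKM keeps no counts. Depth was estimated from the commonest product of FPKM and length, which gave whole fragments for 7.4% to 8.5% of values (within 0.02), so no count test was run. Data for HO against RA were simulated with 13831 genes, 200 of them changed. The test called 75 of 100 genes with a 1.5-fold change, 97 of 100 with a 2-fold change and 14 that had none. Recovery was not measured apart for the repair genes or for low genes, whose changes log2(FPKM + 1) understates. These counts therefore do not show how often a change in such genes would be called.

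The 53 genes, their subsets and the other lists were chosen with earlier results of these data known. Any of the 53 could be named. Full values went to genes past the threshold, the p53-induced genes, the 8 largest fold changes in HO against RA and 12 fixed genes (among them Atm, Ogg1 and Parp1). Library values of further members were given after their values were seen. Of other repair genes up to 6 per direction, and of p53 and cell cycle genes up to 4 per list, were named when past the threshold. Alternatives were other pseudocounts, minimum levels, scalings, variance models, group sets and transcript sets, the replicate number as a block, and each library left out. Tables and plots used Python 3.11.15, pandas 2.3.3 and matplotlib 3.10.9. Some other repair genes are not reported here.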

Additional observations from a re-analysis of the deposited data

How the results depend on the processing

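In HO vs RA, 2 of the 53 genes passed. There were 1 with no minimum level, with FPKM as deposited, scaled to equal protein-coding totals, with no variance trend, with the replicate block or with only the 2 groups compared, and 0 when scaled to equal totals or without HO replicates 2 and 3 together. Leaving out 1 library gave 0 to 3. Of the other repair genes 1 passed, against 0 when scaled to equal totals, with only the 2 groups compared or without HO replicates 2 and 3 together, and 0 to 2 with 1 library left out. In HO-rWNT5A vs RA, 3 of the 53 passed, against 0 when scaled to equal totals. Which genes passed changed in other settings too, and the Polk call was lost in 9 of 23. With 1 library left out, limma adjusted p lay between 0.00479 and 0.077 for Polk and between 0.0406 and 0.182 for Lig3. Other repair genes numbered 4, against 1 with no minimum or equal totals, 2 with protein-coding transcripts alone and 1 to 5 with 1 library left out. In HO-rWNT5A vs HO no alternative gave a call in either list. With FPKM as deposited the median of all genes was -0.057 in HO vs RA and -0.062 in HO-rWNT5A vs RA, against -0.004 in both as reported. No called fold change turned its sign.

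The medians of the 2 subsets moved more. With no minimum level the p53-induced median was -0.03 in HO vs RA (0.10 as reported) and -0.06 in HO-rWNT5A vs RA (0.18). In HO-rWNT5A vs HO it was 0.02 with protein-coding transcripts alone (0.10). The S-phase-linked median in HO vs RA (-0.04) was 0.42 with a minimum of 5 FPKM, which leaves only Msh6, -0.11 without HO replicates 2 and 3 together and -0.13 to 0.01 with 1 library left out. In HO-rWNT5A vs HO (-0.01) it was 0.05 with that minimum, 0.08 with protein-coding transcripts alone and -0.09 without HO replicates 2 and 3 together. In HO-rWNT5A vs RA (-0.19) it was -0.33 with a pseudocount of 0.1, -0.07 with a pseudocount of 5, 0.48 with a minimum of 5 FPKM, -0.04 with protein-coding transcripts alone, -0.11 with only the 2 groups compared and -0.23 to -0.11 with 1 library left out. The causes were not tested.

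Same-numbered libraries did not all deviate together (correlations of deviations from -0.118 to 0.28). With 3 libraries in a group this cannot tell whether the numbers mark a shared culture or day. With the replicate block 1 of the 53 genes passed in HO vs RA, 0 in HO-rWNT5A vs HO and 3 in HO-rWNT5A vs RA. Rad51ap1, tested, had only 23 to 58 rough fragments per library and Mutyh, not tested, 16 to 36. In HO vs RA the p53 activity genes that rose numbered 0 to 8, and the cell cycle genes that fell 0 to 8, over the alternatives, counts made after the data were seen.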
